A study of Mus musculus with 4 samples.

Results

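A set of 9 genes of brain-type vessels was followed across single cells of the embryonic mouse nose: Slc38a5, Spock2, Slc7a5, Foxq1, Apcdd1, Slc40a1, Lrp8, Mfsd2a and Slc2a1. They were selected by name from the 32285 genes of the count tables, and all 9 were found. The endothelial contrast between mutant and control libraries was used to choose them. Their levels in that contrast are therefore a description, and the test calls printed from it for the genes support nothing. The questions were whether these genes fall in the same endothelial cells, and how many such cells each library holds.

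The noses were whole and taken at embryonic day 14.5, and the 4 libraries are 2 controls and 2 mutants. The mutants carry the transgene Tg(Sox10-cre)1Wdr, which drives Cre recombinase in the neural crest and its derivatives. The series design writes their genotype as yap flox/WT;taz flox/flox, so that 1 Yap allele was left intact. The sample labels give the controls as C57Bl/6J, whereas the series design describes yap flox/flox;taz flox/flox animals without Cre. The labels speak of 2 noses of each genotype and not of how they were divided among libraries. The p-values between mutants and controls below therefore measure the spread between these libraries, which may be technical. Cells were released with papain, frozen and loaded on a 10x Genomics droplet system, per the labels' protocols. More than 1 provider is named there but not tied to any library, so provider and genotype cannot be told apart. The further sample they mention was not analysed here.

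The deleted genes were looked at first. Yap1 stood at 65.0 and 65.2 CPM over all control cells (the UMIs of a gene scaled by all UMIs of the summed cells), while both mutants were lower, at 56.4 and 56.0 CPM. Wwtr1, the gene for Taz, had 118 and 145 CPM in the control libraries, with the mutant libraries between them at 123 and 132 CPM. A UMI is a tag that marks 1 captured molecule. Reads from the 3-prime end may include transcripts that lack the floxed exons, so these levels check the labels only weakly.

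In the brain, endothelial cells form a barrier: tight junctions seal the vessel and dedicated transporters carry nutrients across it. Wnt7a and Wnt7b from neural cells act through Frizzled receptors, with Adgra2 and Reck as co-factors, and stabilised beta-catenin then acts with LEF and TCF factors on barrier genes. Vessels outside the nervous system lack most of this programme and often express Plvap, a component of fenestrated endothelium. Of the genes followed here, Slc2a1 encodes the glucose transporter GLUT1, and Slc7a5 encodes LAT1, a carrier of large neutral amino acids. Slc38a5 encodes a glutamine transporter, and Mfsd2a a carrier of lysophospholipids that bring omega-3 fatty acid to the brain. Slc40a1 is ferroportin, the iron exporter, and Lrp8 is a receptor for reelin and apolipoprotein E. Apcdd1 is a membrane inhibitor of Wnt signalling, Foxq1 a forkhead transcription factor and Spock2 a secreted proteoglycan, testican-2.

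A cell was kept if it had 500 or more detected genes and no more than 10% of its UMIs from mitochondrial genes, which left 4075 and 2474 cells in controls 1 and 2 and 2995 and 4195 in mutants 1 and 2. A cell was called endothelial when at least 3 of Pecam1, Cdh5, Kdr, Cldn5, Emcn and Egfl7 were detected. By that rule the controls held 67 and 32 endothelial cells, and the mutants 38 and 125. Mutant 2 stood apart. Its endothelial cells had a median of 5602 UMIs against 13752, 12720.5 and 18625 in control 1, control 2 and mutant 1. Of its 125 cells, 43 held under 3000 UMIs, against 2 to 4 in the other libraries. Just inside the threshold, 30 of its cells had 3 markers, against 1 to 3 elsewhere, and just outside it, 49 had 2 markers, against 22 to 51. Cells with at least 3 markers of another class made up 54 of its endothelial cells, against 6 to 11 elsewhere. Each pair of libraries shared 3 to 5 cell barcodes, none of them of endothelial cells.

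All 9 genes were lower in the endothelial cells of both mutants than of both controls, the pattern they were chosen on. Over the 9220 genes that passed the low-count filter, 18.9% were lower in both mutants. That filter kept 8 of the 9, and Mfsd2a did not pass. By edgeR, 6 genes of the table were lower at an adjusted p under 0.05, which is 0.0651% of those tested: Slc38a5, Spock2, Slc7a5, Foxq1, Slc40a1 and Foxf2, a forkhead factor of brain vessels and pericytes. Epha3, an ephrin receptor, was the 1 gene that was higher. Since these values chose the genes, nothing is read from the counts.

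The amino acid transporter Slc38a5 (ENSMUSG00000031170, chrX:8271133-8280179) had 63 and 50 UMIs in the control endothelial cells, or 50.9 and 88.8 CPM. Mutant 1 had 0 UMIs and mutant 2 had 1. Pooled over libraries, 113 control UMIs against 1 mutant UMI gave a ratio of 143, with a 95% interval from 25.1 to 5690. That exact interval covers counting error only. Slc38a5 was the most endothelial of the genes: over the 10 classes with 5 or more cells in every library, 114 of its UMIs, or 91.9%, lay in endothelial cells. That leaves out the erythroid class of 3 cells in control 2 and 1 in mutant 1, where control 2 had 2 UMIs. In mesenchyme-like cells, which should lack it, 0.0672% and 0.257% of control cells had a UMI at median depths of 6678.5 and 6712 UMIs, against 8.96% and 9.38% of endothelial cells.

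Slc7a5 (ENSMUSG00000040010, chr8:121881150-121907694) stood at 113 and 140 CPM in controls and at 20.8 and 22.1 CPM in mutants. Slc2a1 (ENSMUSG00000028645, chr4:119108711-119137983), the glucose transporter, differed least, at 184 and 222 CPM in controls against 98.8 and 144 CPM in mutants. It was also the most widespread of the 9 in these cells, with a UMI in 45 of 67 and 19 of 32 control cells. Mfsd2a (ENSMUSG00000028655, chr4:122946850-122961188) rested on few molecules: 33 UMIs in control 1, of which 30 came from a single cell, 4 in control 2, 1 in mutant 1 and 0 in mutant 2. Slc40a1 (ENSMUSG00000025993, chr1:45908068-45926523), the iron exporter, stood at 42.8 and 67.5 CPM in controls and at 10.4 and 6.85 CPM in mutants.

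Among the signalling genes, Foxq1 (ENSMUSG00000038415, chr13:31556134-31560976) had 48 and 35 UMIs in controls, 0 in mutant 1 and 2 in mutant 2. Its pooled ratio was 52.4, with a counting interval from 14.1 to 440.25. Apcdd1 (ENSMUSG00000071847, on chromosome 18), the Wnt inhibitor, stood at 63.8 and 121 CPM in controls and at 34.3 and 15.2 CPM in mutants. In mutant 1, 29 of the 33 Apcdd1 UMIs came from 5 cells that were scored as doublets and had 5 or 6 mesenchyme markers. The receptor Lrp8 (ENSMUSG00000028613, chr4:107802261-107876840) had 46 and 15 UMIs in controls against 5 and 6 in mutants. Spock2 (ENSMUSG00000058297, chr10:60106219-60135198), the proteoglycan, stood at 50.1 and 51.5 CPM in controls and at 4.16 and 1.52 CPM in mutants. For each of these 4 the control values lay above the mutant values with no overlap.

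**Figure D1:**
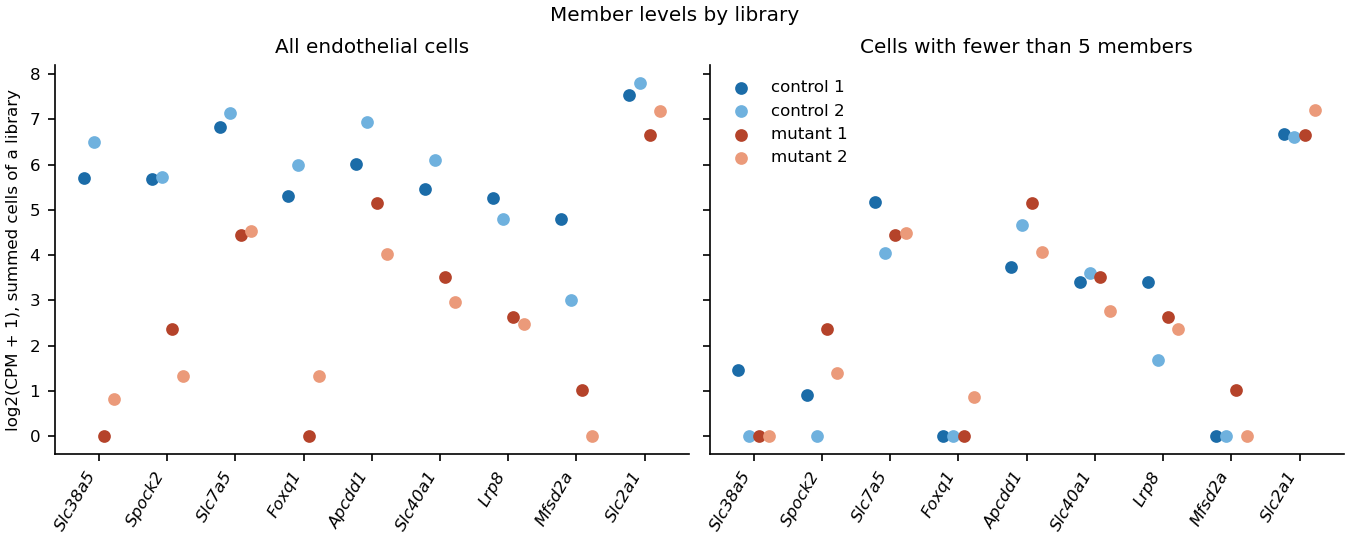
Level of each gene in the summed endothelial cells of a library, as log2(CPM + 1), with 1 point per library. In all endothelial cells (left) both controls lie above both mutants for all 9 genes; in the cells with fewer than 5 of the genes (right) the groups overlap or tie for all but Spock2, which is higher in both mutants on a handful of UMIs.

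Because the genes may share regulatory letters, promoters of the RefSeq table were read (GRCm38.p6, 250 bases before to 50 after the start). They were read for 5 of the 9 genes, 7 promoters in all. Slc7a5, Foxq1 and Slc40a1 had no entry there. Apcdd1 was left out of the search, so nothing is said of its promoter. The LEF/TCF core TCAAAG, searched on both strands, was in the promoters of Spock2 (chr10:60106007-60106306, plus strand, at -133) and Mfsd2a (chr4:122961139-122961438, minus strand, at -115), each as its reverse complement in capitals below. It was not in those of Slc38a5 (chrX:8271131-8271430, plus strand), shown for comparison as the most endothelial gene, Slc2a1 or Lrp8. Of the 32851 promoters searched in the table, 16.0% hold these letters. The forkhead letters GTAAACA (3.65% of promoters) and the ETS letters AGGAAG (35.4%) were in none of the 7. A match describes the letters only.
Spock2: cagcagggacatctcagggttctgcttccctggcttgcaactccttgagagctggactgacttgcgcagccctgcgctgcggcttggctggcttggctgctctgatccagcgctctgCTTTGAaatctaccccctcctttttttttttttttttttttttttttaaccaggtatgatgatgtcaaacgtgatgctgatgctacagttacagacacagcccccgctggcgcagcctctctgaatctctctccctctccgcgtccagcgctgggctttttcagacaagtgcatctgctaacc
Mfsd2a: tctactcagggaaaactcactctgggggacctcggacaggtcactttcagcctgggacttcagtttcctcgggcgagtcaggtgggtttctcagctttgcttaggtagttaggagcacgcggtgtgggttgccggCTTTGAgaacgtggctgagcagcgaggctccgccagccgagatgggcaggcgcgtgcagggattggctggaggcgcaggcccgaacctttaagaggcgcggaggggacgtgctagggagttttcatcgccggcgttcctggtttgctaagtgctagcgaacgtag
Slc38a5: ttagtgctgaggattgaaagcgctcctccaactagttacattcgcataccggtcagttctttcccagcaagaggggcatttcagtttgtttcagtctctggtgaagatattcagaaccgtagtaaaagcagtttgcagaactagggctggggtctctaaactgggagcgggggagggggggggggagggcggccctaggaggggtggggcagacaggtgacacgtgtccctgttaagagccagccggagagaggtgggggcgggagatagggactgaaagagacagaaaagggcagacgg

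In controls, a few cells held UMIs of all or most of the 9 genes, but the broader genes also lay in many others. Slc2a1 had a UMI in 45 of 67 and 19 of 32 control cells, and Slc7a5 in 24 and 10. In control 1, the cell richest in these genes held 319 of their UMIs among its 33265 UMIs: 29 of Slc38a5, 43 of Spock2, 55 of Slc7a5, 16 of Foxq1, 32 of Apcdd1, 22 of Slc40a1, 23 of Lrp8, 30 of Mfsd2a and 69 of Slc2a1. A second cell of that library also had all 9. In control 2, a single cell of 60912 UMIs had all 9, with 264 of their UMIs, including 40 of Slc38a5 and 29 of Foxq1. No mutant cell had more than 5 of the genes. The 2 mutant cells that had 5 were both in mutant 2, held 11 UMIs of the genes each, and had 53908 and 53649 UMIs in all. The first also had 4 mesenchyme markers and the second 5 mural markers; among the control cells with at least 5 genes, 1 cell of control 1, with 8 of the genes, had 4 mural markers.

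**Figure D2:**
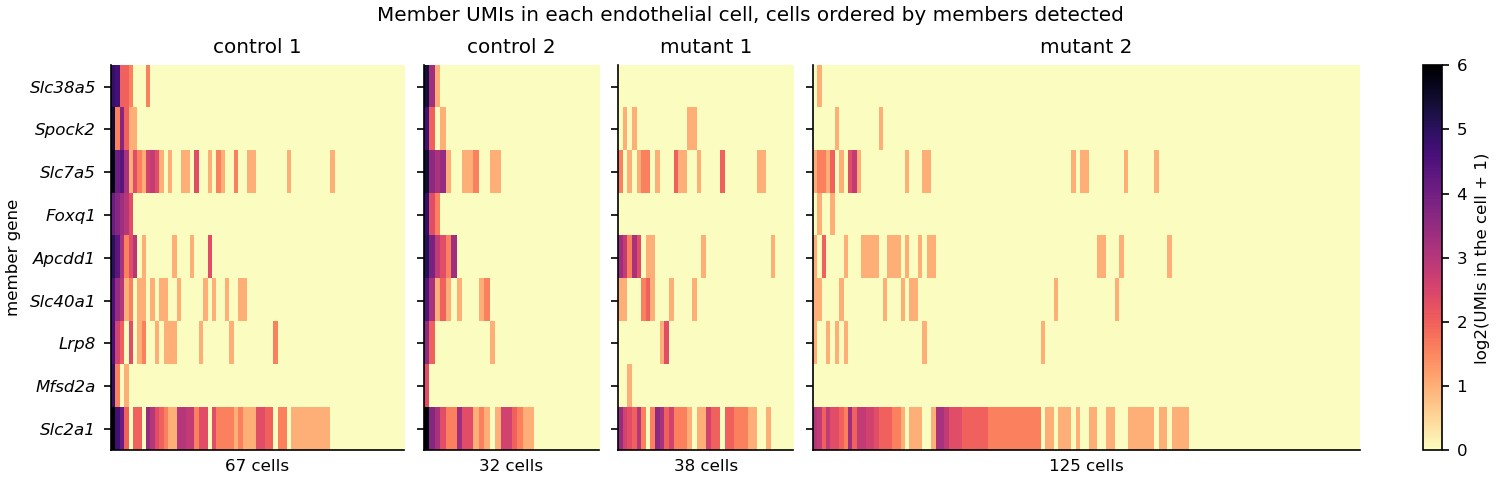
Each column is 1 endothelial cell and each row 1 of the 9 genes; colour is log2(UMIs in the cell + 1), and cells are ordered by the number of genes detected. In each control a few cells at the left hold most of the UMIs of the genes other than Slc2a1, which extends into many others.

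The share of endothelial cells with at least 3 of the 9 genes, the measure set for this question, did not separate the groups. It was 15 of 67 cells in control 1 (22.4%, exact 95% interval 13.1 to 34.2%) and 5 of 32 in control 2 (15.6%, 5.28 to 32.8%). It was 8 of 38 cells in mutant 1 (21.1%, 9.55 to 37.3%) and 8 of 125 in mutant 2 (6.4%, 2.80 to 12.2%). Mutant 1 lay between the controls, so the groups overlapped. With 2 libraries against 2, an exact two-sided permutation test cannot go below p = 0.33. Depth moved with this share: control 1 cells with exactly 3 genes had a median of 38996 UMIs and those with none 8552. In mutant 1, 5 of the 8 such cells were scored as doublets and had 5 or 6 mesenchyme markers; without scored doublets its share was 3 of 32 (9.38%) and that of mutant 2 was 5.69%, against 21.7% and 17.2% in controls. The groups were then apart, as they were without cells of another class (19.6% and 15.4% in controls, 3 of 30 cells and 1.41% in mutants) and at a threshold of 4 genes (11.9% and 15.6% against 7.89% and 1.6%). They overlapped at a threshold of 2 genes, with 4 of 6 endothelial markers required, and with stricter cell filters.

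Reducing every cell to 3000 UMIs drawn at random, and leaving out 4, 4, 2 and 43 shallower cells, put all cells at 1 depth. At least 3 of the genes were then found in 4 of 63 cells of control 1 (6.35%) and 2 of 28 of control 2 (7.14%). None was found among 36 cells of mutant 1, which allows a share of up to 8.33%, or among 82 cells of mutant 2, which allows up to 3.66%. The limit for mutant 1 lies above both control shares, so a difference from it was not detectable at this depth. Counting cells with at least 5 genes at full depth, a threshold chosen after seeing the data, gave 5 of 67 and 4 of 32 cells in controls (7.46% and 12.5%) and 0 of 38 and 2 of 125 in mutants (0, which allows up to 7.89%, and 1.6%).

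If each gene had fallen independently among the cells of a library at its own frequency, 0.888 and 0.299 cells with at least 5 genes would be expected in controls 1 and 2, where 5 and 4 were seen. The same expectation was 0.114 in mutant 1 and 0.0153 in mutant 2, where 0 and 2 were seen. It ignores that deep cells detect more of every gene. In thinned cells, the expectation for at least 3 genes was 2.49 and 0.735 in controls, against 4 and 2 seen, and 0.115 and 0.165 in mutants, against 0 seen. Over the 99 control cells, all 36 pairs of genes were found together more often than under independence. Slc38a5 and Foxq1 shared 8 cells, of 9 and 8 that had them, where 0.727 were expected. Spock2 and Apcdd1 shared 9 cells, all of those with Spock2, where 1.46 were expected. In the 163 mutant cells, 23 of the 36 pairs were above independence and 12 shared no cell; of those 12, Spock2 with Slc7a5 had the highest expectation, 1.10 cells.

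**Figure D3:**
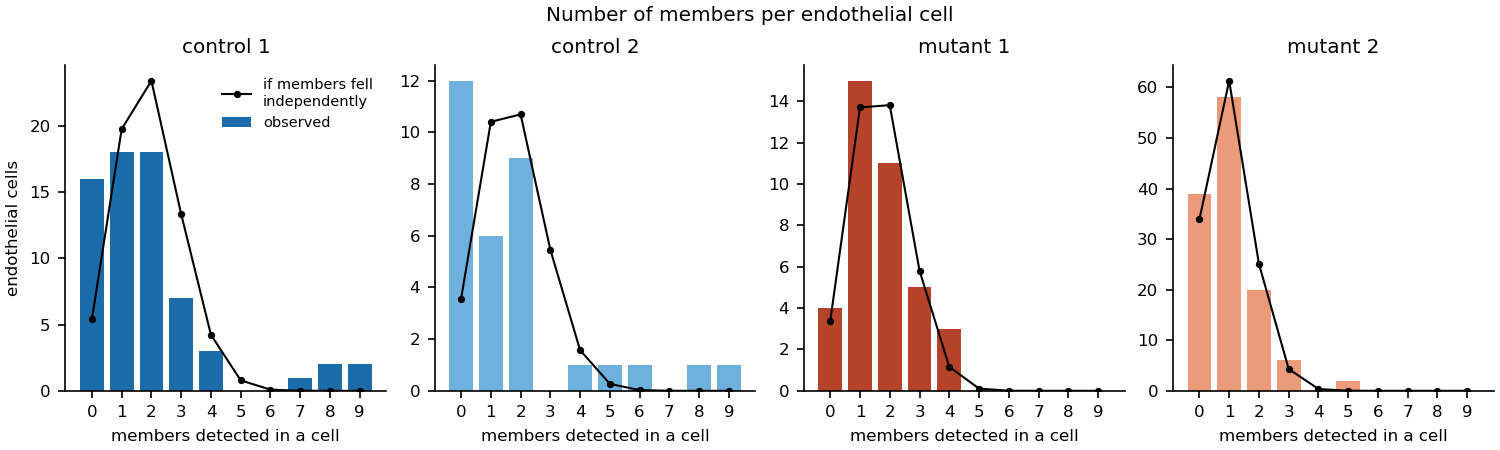
Bars give the number of endothelial cells in which 0 to 9 of the genes were detected, by library, and black points the number if the genes fell independently at their own frequencies in that library. Control 1 has 5 cells and control 2 has 4 cells at 5 genes or more, where 0.888 and 0.299 are expected.

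The control cells with at least 5 genes held 74.2% of the UMIs of the 9 genes in control 1 and 84.9% in control 2, and only 8.28% and 20.3% of all endothelial UMIs. They held 61 of 63 and 50 of 50 UMIs of Slc38a5, 61 of 62 and 29 of 29 of Spock2, and all UMIs of Foxq1 and Mfsd2a. The broader genes spread further: 113 of 228 and 82 of 125 UMIs of Slc2a1 lay in them, and 100 of 140 and 72 of 79 of Slc7a5. These cells were chosen by the genes themselves, so this says how concentrated the UMIs were and is no test.

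Outside the cells with at least 5 genes, no gene was lower in both mutants. The summed level of the 9 was 171 and 149 CPM in control cells and slightly higher, at 175 and 196 CPM, in mutant cells, against 607 and 786 CPM in controls with those cells kept. Slc7a5 had 35.2 and 15.6 CPM in controls, with both mutants between them at 20.8 and 21.5 CPM. Apcdd1 had 12.3 and 24.5 CPM in controls against 34.3 and 15.7 CPM in mutants, which overlap. Of the 33 Apcdd1 UMIs of mutant 1, 29 lay in the 5 cells scored as doublets with mesenchyme markers. The glucose transporter Slc2a1 had 101 and 95.8 CPM in controls against 98.8 and 146 CPM in mutants, which also overlap. Spock2 did not overlap, with 1 and 0 UMIs left in controls and 4 and 2 in mutants. Since these cells were removed for holding the 9 genes, a smaller difference without them was largely fixed by that choice, and nothing is drawn from it.

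The next question was what else cells with several of the genes express. Control endothelial cells with at least 3 of them (15 and 5) were compared with cells that had none (16 and 12). Counts were summed within each library. Of the 15 cells of control 1, 7 had exactly 3 of the genes and 3 had 4. Most of them are therefore not the cells with at least 5 genes described above. By edgeR's quasi-likelihood test with the library as a block, 99 of 3159 other genes passed an adjusted p of 0.05 (3.13%), 59 higher and 40 lower. The cells with the genes were deeper, at medians of 30400 and 18597 UMIs against 8552 and 5823.5. The part of depth in the calls was not tested in this form. Classing cells after thinning gave 268 calls of 4029 (6.65%), 158 higher and 110 lower; there 4 and 2 cells, all 6 of which had at least 5 genes at full depth, were set against 36 and 19. In both forms only 2 control libraries stand behind the p-values, which rest largely on variation that edgeR pools over all genes. They do not measure the spread among the cells summed. A small p-value for a single gene therefore does not show that its difference was well replicated.

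Amino acid carriers were among the genes with the largest rises in the first form. Slc7a1, a carrier of cationic amino acids, stood at 177 and 791 CPM in cells with the genes and at 5.77 and 23.5 CPM in cells with none, a log2 change of 4.89 ± 0.48 (SE; adjusted p = 3.4e-06). Slc1a4, a carrier of small neutral amino acids, rose by 5.55 ± 0.77 on that scale (adjusted p = 0.00013). The other genes named by size of rise were Gatm of creatine synthesis, Cdkn1a, Pltp, Gm10785, the N-cadherin gene Cdh2, Tiam1, the zinc carrier Slc39a8 and Abhd2, with fitted changes from 3.51 to 7.93. Gatm was at 85.5 and 184 CPM against 0 in both controls, and Cdkn1a at 83.4 and 79.9 CPM against 0, so their fitted changes depend on the prior count.

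Genes of lymphatic vessels were among the largest falls. Ccl21a, a chemokine of lymphatic endothelium, stood at 4.28 and 0 CPM in cells with the genes and at 2002 and 3065 CPM in cells with none. Prox1, the master factor of lymphatic identity, had 27.8 and 0 CPM where cells with none had 185 and 400 CPM (log2 change -3.62 ± 0.52, adjusted p = 0.00019), and Reln at 2.14 and 0 CPM against 173 and 271 CPM. The others by size were Nts, Pard6g, Ptx3, Plce1, Nnat, Arhgap6 and Maf, with fitted changes from -5.63 to -3.56. Of 4 measured lymphatic genes of the list, 2 fell and none rose. The list's median log2 change was -3.56, and 40 of all 3159 genes were called lower.

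The barrier lists rose in parts. In the first form, 3 of 5 measured transporters rose (Slc7a1, Slc3a2 and the taurine carrier Slc6a6) and 2 of 3 other barrier genes (Itm2a and Palmd). None of 3 junction genes and none of 5 Wnt effectors or targets passed. Over all genes, 59 of 3159 were called higher in that form. After thinning, 9 of 11 measured transporters rose, with a median log2 change of 3.02, where 158 of all 4029 genes were called higher. Slco1c1, a thyroid hormone carrier, stood at 236 and 189 CPM in the cells with the genes and at 3.32 and 0 CPM in those with none. Abcb1a, the drug efflux pump P-glycoprotein, had 208 and 138 CPM where cells with none had 6.65 and 14.0 CPM (log2 change 3.98 ± 0.61, adjusted p = 6.2e-09). Slc3a2, the heavy chain that pairs with Slc7a5, stood at 637 and 767 CPM against 66.5 and 92.4 CPM.

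Of the Wnt list, 5 of 9 measured effectors and targets rose after thinning, again beside 158 of all 4029 genes. Lef1 had 97.0 and 151 CPM where cells with none had 1.66 and 8.40 CPM (log2 change 4.52 ± 0.65, adjusted p = 3.5e-10). Tcf7, Tnfrsf19 and Znrf3 rose by 4.03, 2.76 and 2.42 on that scale. Ctnnb1, the beta-catenin gene, did not pass (log2 change 0.08 ± 0.39), nor did any of 4 measured receptors, Fzd4 included (0.15 ± 0.63). Junction genes rose in 4 of 5 cases: Lsr, Jam2, Esam and Tjp1, by 6.79, 3.32, 1.35 and 1.09. Foxf2 stood at 277 and 164 CPM against 0 and 2.80 CPM. Of the peripheral vessel list, Fabp4 was at 0 CPM against 460 and 129 CPM, while Plvap did not pass and changed sign with the classing of cells, at -1.21 ± 0.49 after thinning (adjusted p = 0.13) and 0.37 ± 0.37 in the first form (adjusted p = 0.75). Cldn5, a marker that defined the endothelial class, rose by 2.28 ± 0.42. Mesenchyme genes moved too: Col1a1 had 0 CPM in the 6 cells with the genes and 184 and 193 CPM in the cells with none, and Col3a1 0 CPM against 108 and 216 CPM. Their part in the calls after thinning was not tested.

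**Figure D4:**
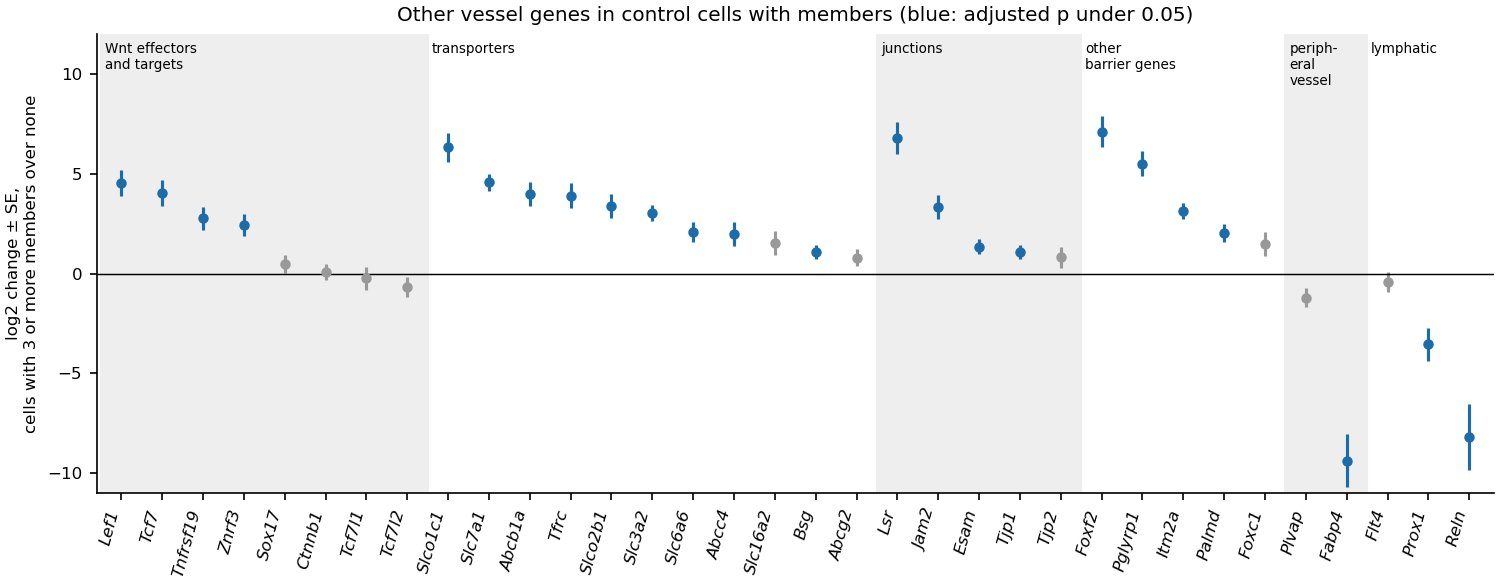
Log2 change ± SE of other vessel genes between control endothelial cells with at least 3 of the 9 genes and with none, classed after thinning to 3000 UMIs, by gene list (blue, adjusted p under 0.05). The 9 transporters and 4 junction genes that passed lie above 0, and Fabp4, Prox1 and Reln below.

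The genes whose UMIs followed the 9 most closely across thinned control cells were ranked by the mean of 2 within-library correlations, over 63 and 28 cells and 5341 genes. The first 10 were Pltp, Vwa1, Slc1a4, Pglyrp1, Slc7a1, Slc3a2, Itm2a, Slc38a3, Bvht and R3hdm4, with mean r from 0.62 down to 0.51. These r values are descriptive: cells of a library share it, and a few cells carry them. Pglyrp1 had r = 0.78 in control 1 and 0.41 in control 2, and Slc38a3 0.21 and 0.86.

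Between mutants and controls, the wider lists in endothelial cells gave few calls, in the contrast the genes were chosen on. The share of all genes lower in both mutants, 18.9%, stands beside each count of lower genes here. None of 12 measured transporters passed, 6 were lower in both mutants, and their median log2 change was -0.71, beside 0.01 over all 9220 genes. Of 5 measured junction genes none passed, 3 were lower and 2 higher in both mutants, and the median was -0.19. Of 5 measured other barrier genes 3 were lower in both mutants, with a median of -1.29, and 1 passed, Foxf2. Of 8 measured Wnt effectors and targets, 2 were lower in both mutants and the median was -0.06; Lef1, at 15.4 and 49.7 CPM in controls, overlapped the mutants, at 60.3 and 30.4 CPM. In mutant 1, the 5 cells scored as doublets with mesenchyme markers held 20, 8, 6, 6 and 9 Lef1 UMIs. Mesenchyme-like cells averaged 92.2 CPM of Lef1 in controls and 122 CPM in mutants. The ligands Wnt7a, Wnt7b and Ndp had 0 UMIs in endothelial cells of all 4 libraries, and over all cells their sum was 8.83 and 6.07 CPM in control libraries against 9.58 and 8.37 CPM in mutant ones. Of 5 measured peripheral vessel genes 3 were higher in both mutants, and likewise 3 of 5 arterial genes. Over all 9220 genes, 1615 were higher in both mutants. All 4 measured lymphatic genes were lower in both mutants, and the 5 lymphatic genes had a summed level of 217 and 465 CPM in control libraries against 99.8 and 126 CPM in mutant ones.

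Among markers of tissue in or around the brain, the meningeal and pericyte sums were lower in both mutants, the latter largely through Vtn. The forebrain neuron and microglia sums overlapped between the groups. The 6 meningeal genes listed (Zic1, Zic2, Zic4, Slc6a13, Ptgds, Slc22a6) summed to 53.1 and 90.8 CPM over all control cells and to 17.1 and 29.95 CPM over all mutant cells, and all 6 had a UMI in every library. Cells with at least 3 of them numbered 86 and 104 in controls and 16 and 30 in mutants. Ptgds did not follow the others in mesenchyme-like cells, where its groups overlapped (means of 1.79 CPM in controls and 3.12 CPM in mutants). The 5 brain pericyte genes summed to 44.97 and 52.8 CPM over control cells against 17.2 and 27.1 CPM over mutant cells; Vtn among them had 23.1 and 35.0 CPM where mutants had 3.26 and 3.16 CPM. The groups overlapped for the next most abundant of the 5, Abcc9 (10.7 and 11.8 CPM in controls, 8.72 and 12.4 CPM in mutants), and for Kcnj8. The 7 forebrain neuron genes reached 4.25 and 2.73 CPM in control libraries against 2.78 and 3.13 CPM in mutant ones, with 1 cell in control 1 and none elsewhere carrying at least 3. The 5 microglia genes summed to 49.9 and 40.1 CPM against 40.9 and 47.9 CPM. Whether the amount of tissue near the brain in each dissection had a part in the number of cells with these genes was not tested.

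Outside endothelium, the 9 genes differed widely in where they lay, over the classes with 5 or more cells in every library. The 4 erythroid cells fall outside this order: Slc2a1 reached 445.8 CPM in the 3 of control 2 and 441 CPM in the 1 of mutant 1, on 14 and 6 UMIs. Slc40a1 was highest in macrophage-like cells, at 153 ± 59.9 CPM (SD, n = 4 libraries), above endothelial cells with no overlap. Apcdd1 was highest in mesenchyme-like cells (117 ± 24.6 CPM), which held 92.2% of its UMIs, and its endothelial range overlapped theirs. Slc2a1 was highest in epithelial-like cells (224 ± 43.3 CPM), followed by endothelial cells (162 ± 53.0 CPM), with overlap. Spock2 was highest in neuronal-like cells (48.2 ± 18.8 CPM) and Mfsd2a in epithelial-like cells (9.54 ± 2.12 CPM), both overlapping endothelial cells. Slc38a5, Slc7a5, Foxq1 and Lrp8 had their highest mean in endothelial cells, at 35.1, 74.0, 25.6 and 18.4 CPM, but with SDs of 43.0, 61.8, 30.2 and 16.2 their ranges overlapped the next class. These means pool mutants with controls. In controls alone, Slc2a1 had 184 and 222 CPM in endothelial and 203 and 173 CPM in epithelial-like cells, and Mfsd2a 26.7 and 7.10 CPM against 8.67 and 12.5 CPM, which overlap. In controls the endothelial values of Slc38a5, Slc7a5 and Foxq1 lay above both the epithelial-like and the mural values, for Foxq1 narrowly (38.8 CPM against a mural 38.4 CPM).

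In the 5 other classes that had 20 or more cells in each library, no test of the 9 genes passed between mutants and controls. By edgeR, 0 of 23 tests passed, and by DESeq2 also 0, while by edgeR 7 had an unadjusted p under 0.05. That edgeR p was under 0.05 for 1242 of 16220 genes in mesenchyme-like, 773 of 13034 in epithelial-like and 323 of 6779 in macrophage-like cells. In glia-like and chondrocyte-like cells it was under 0.05 for 295 of 5825 and 230 of 5836 genes. Over all genes, 0% passed in mesenchyme-like, 0% in epithelial-like, 0.0148% in macrophage-like, 0% in glia-like and 0% in chondrocyte-like cells. Slc2a1 had higher values in both mutants than in both controls in all 5, a pattern shown by 26.4% of all genes in mesenchyme-like, 21.3% in epithelial-like, 16.7% in macrophage-like, 20.7% in glia-like and 18.6% in chondrocyte-like cells. Its means were 34.3 CPM in controls and 57.1 CPM in mutants in mesenchyme-like cells (log2 change 0.69 ± 0.17 SE, adjusted p = 0.46), and its log2 changes ranged from 0.44 to 0.93. Without control 1, 2 of these passed, in mesenchyme-like (adjusted p = 0.0029) and epithelial-like cells (adjusted p = 0.038); there 493 of 16707 and 496 of 13387 of all genes passed as well. The iron exporter Slc40a1 stood at 198 and 205 CPM in control macrophage-like cells and at 79.5 and 129 CPM in mutant ones (log2 change -0.95, adjusted p = 0.58). Neuronal, mural, osteoblast, muscle and erythroid classes had too few cells in some library for a test.

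**Figure D5:**
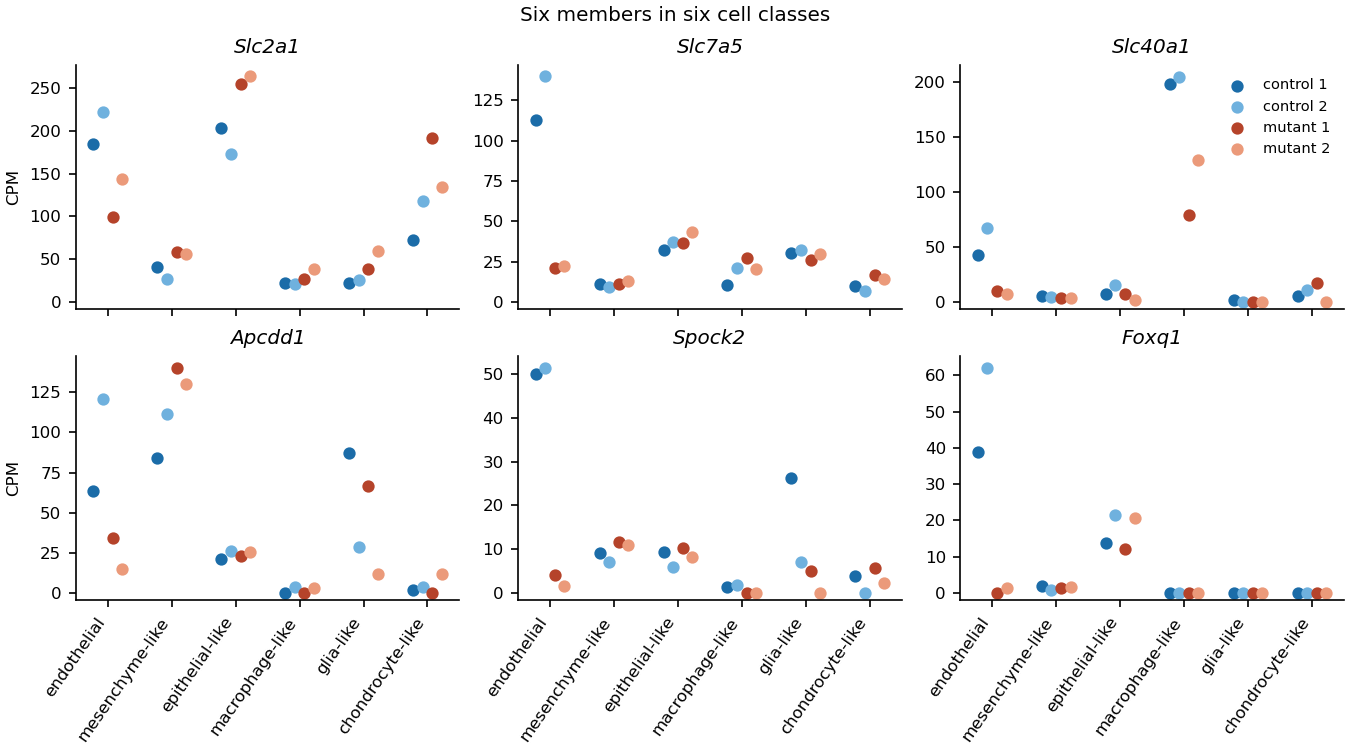
Level in CPM of 6 of the genes in the 6 classes with enough cells, 1 point per library. Slc2a1 is lower in both mutants in endothelial cells and higher in both in the other 5 classes, and Slc40a1 is highest in macrophage-like cells.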

How the data were processed

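Each deposited file is a matrix of unnormalised UMI counts, genes by cell barcodes; Cell Ranger produced it, in version 8.0.1 per the file headers and version 4 per the submitters' processing notes, which also name build mm10. UMI totals were 35887490, 20170229, 30040144 and 27646940. Counts of the retained cells of a class were added up within a library. The sums entered the quasi-likelihood test of edgeR 4.0.16 with TMM scaling, its default expression filter and Benjamini-Hochberg adjustment; DESeq2 1.42.0 was an alternative. Classes needed 3 of 6 markers and more than of any other class outside endothelium, and are called X-like for that reason; doublets were scored with Scrublet in scanpy 1.11.5, whose highest scores (0.8% per 1000 barcodes) were removed only as an alternative. Gene positions are those of GENCODE M21 on GRCm38. On simulated counts the cell-group test recovered large changes in well-counted genes and none of the smaller changes in noisier, low-count ones, so a gene that did not pass there is not shown to be unchanged. Replicate numbers were not used to pair the libraries in the tests as reported. The genes, lists and rules were chosen with earlier results of these data known. Named genes were all 9, the listed genes that passed or a comparison needs, the 10 largest rises and falls, and the 10 most alike. Intervals and limits (3 counts) cover counting error only. A listed gene that is counted with its list is not reported here by name or drawn.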

Additional observations from a re-analysis of the deposited data

Results flagged for a closer look

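Several genes had lower values in endothelial cells of both mutants and higher values in another class of both, so that every library moved the opposite way. The difference between classes was not tested, and the endothelial direction is the one the genes were chosen on. For Slc2a1 the log2 changes, mutant over control, were 0.69 in mesenchyme-like, 0.44 in epithelial-like, 0.60 in macrophage-like, 0.93 in glia-like and 0.73 in chondrocyte-like cells. In mesenchyme-like cells they were 0.78 for Mfsd2a, 0.43 for Spock2 and 0.43 for Apcdd1. In epithelial-like cells Lrp8 had 0.25. Over all genes, 16.7% (macrophage-like) to 26.4% (mesenchyme-like) were higher in both mutants. The share lower in both mutants ran from 14.3% (glia-like) to 18.7% (epithelial-like). Of the 23 tests in other classes, 9 were higher and 3 lower in both mutants, the 3 being Slc7a5 in glia-like and Slc40a1 in macrophage-like and mesenchyme-like cells. None of these passed an adjusted p of 0.05 by edgeR.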

How the results depend on the processing

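With 2 libraries a group, single libraries and a few cells decide much. The number of the 9 genes passing in endothelial cells was 5; it was 8 without the low-count filter, 0 of 4 tested without the cells that held at least 5 genes (added after seeing the data, and largely fixed by the choice of cells; 492 genes of the table had an unadjusted p under 0.05 there), and 4 to 8 without 1 library. All genes called numbered 7 as reported, 20 by DESeq2, 225 with no filter, 166 with a replicate block, and 65, 7, 93 and 191 without control 1, control 2, mutant 1 and mutant 2. The replicate block gave 7 of the 9 genes. Across genes in endothelial cells, the log2 difference of control 1 from control 2 correlated at r = 0.054 with that of mutant 1 from mutant 2. That value does not settle whether same-numbered libraries share a batch. Member tests passing in other classes were 0 as reported, 2 with no filter, and 0 to 2 without 1 library. Genes called between control cells with and without the genes numbered 99; they were 14 by DESeq2, 183 with no filter, 59 with no replicate block, 18 at 2 or more genes, 268 after thinning, 36 without doublets, 57 without cells of another class, and 199 at 5 or more genes against fewer (added after seeing the data). No library can be left out there, since that leaves no residual degrees of freedom. The control minus mutant share of cells with at least 3 genes was 5.28 percentage points, and -2.05 to 12.6 without 1 library, the lowest without mutant 2. None of the 9 genes reversed a called direction in a setting that tested it. Spock2, higher in both mutants without the cells that held at least 5 genes, was not among the 4 tested there. Directions of the other named genes were not compared over settings.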
